A study of Mus musculus with 16 samples.

Results

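The 29 genes described here encode the enzymes and regulators of cholesterol synthesis and the proteins that export, store or convert cholesterol. They were chosen by name from textbook knowledge of the pathway, and all 29 were found among the 21878 mRNAs of the deposited tables. The set held 22 synthesis genes and 7 efflux and turnover genes. All 29 entered the test of 17885 mRNAs with a summed count of at least 16 over the libraries.

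Both groups were female wild-type (WT) C57BL/6 mice aged 8 weeks. The 8 EAE mice received the myelin peptide MOG35-55 in complete Freund's adjuvant with pertussis toxin, which induces experimental autoimmune encephalomyelitis (EAE), a model of multiple sclerosis, and the 8 control mice received PBS in its place. Brains were taken on day 14, at peak disease per the study's methods, and the sorted CD11b+/CD45int cells, labelled as microglia, gave 1 ribosomal-RNA-depleted RNA-seq library per mouse. In the EAE labels, the last MOG residue in the treatment field rose by 1 with each replicate, from 55 to 62, while the protocol text names MOG35-55 throughout. The adjuvant and the pertussis toxin were part of the EAE treatment, so their share in a difference and that of the autoimmune disease cannot be told apart.

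Total counts were 24587443 to 30244215 in the EAE libraries and 26031889 to 34184576 in the PBS libraries. The label of the cells was compared with marker genes. The summed level of 10 microglia markers was 103.4 to 153.5 FPKM (fragments scaled to transcript length and to the mapped total of the library) in EAE and 86.4 to 141.9 in PBS. The summed level of 8 neuron markers was 798.4 to 985.2 in EAE and 946.4 to 1055 in PBS, that of 8 astrocyte markers 1161 to 1750 and 1348 to 1590, and that of 8 oligodendrocyte markers 912.4 to 1283 and 1002 to 1228. The summed neuron, astrocyte and oligodendrocyte markers each stood above the summed microglia markers in every library. The summed level of 6 endothelial markers lay below, at 30.4 to 45.6 FPKM in EAE and 25.5 to 45.9 in PBS. Markers of other brain cell types were thus present in every library, but sums over different genes do not rank the RNA of cell types. Fewer cells of a type and less RNA per cell cannot be told apart in bulk samples. EAE replicates 6, 7 and 8 and PBS replicates 5, 7 and 8 were more alike than any other libraries of their groups, with squared differences of 3.08 to 4.85 times counting noise between pairs against 7.01 to 38.2 times for the remaining pairs. No label names this split, and results are given with and without it.

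Cholesterol is built from acetyl-CoA through mevalonate, squalene and lanosterol. When membrane sterol falls, the transcription factor SREBP2 leaves the endoplasmic reticulum, where INSIG proteins retain it, and switches on the genes of the pathway. When sterol accumulates, oxysterols activate the LXR receptors, which switch on the export pumps ABCA1 and ABCG1. The adult brain makes its own cholesterol because lipoproteins of the blood do not cross the blood-brain barrier, astrocytes and oligodendrocytes are its main producers, and microglia that engulf myelin must export or store the cholesterol it carries.

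Sterol control acts at promoters, where SREBP binds sterol regulatory elements beside CCAAT boxes bound by the factor NF-Y. RefSeq promoter windows of 250 bases before to 50 bases after the gene start (build GRCm38.p6) were found for 24 of the 29 genes. The windows of Hmgcs1 at chr13:119690101-119690400 (plus strand), Srebf2 at chr15:82147019-82147318 (plus strand) and Insig1 at chr5:28071162-28071461 (plus strand) are shown because the levels of Srebf2 and Insig1 followed that of Hmgcs1 most closely among the 29 genes, as described further on. Capitals mark matches, on either strand, to TCACCCCA and CACCCCAC, which overlap each other and are parts of classical sterol regulatory elements, to the related CACCCGAC, and to CCAAT.
Hmgcs1: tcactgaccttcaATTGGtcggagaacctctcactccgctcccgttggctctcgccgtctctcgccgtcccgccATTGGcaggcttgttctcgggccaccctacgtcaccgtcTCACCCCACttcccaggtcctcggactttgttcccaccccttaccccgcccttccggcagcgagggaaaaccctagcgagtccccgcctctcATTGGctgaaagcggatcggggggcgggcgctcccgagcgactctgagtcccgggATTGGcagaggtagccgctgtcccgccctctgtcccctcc
Srebf2: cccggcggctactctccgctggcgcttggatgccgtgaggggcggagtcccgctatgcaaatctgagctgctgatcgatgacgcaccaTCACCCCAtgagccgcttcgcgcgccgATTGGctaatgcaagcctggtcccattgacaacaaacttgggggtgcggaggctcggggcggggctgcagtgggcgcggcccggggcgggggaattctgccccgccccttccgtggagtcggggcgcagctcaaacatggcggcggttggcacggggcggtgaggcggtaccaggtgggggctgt
Insig1: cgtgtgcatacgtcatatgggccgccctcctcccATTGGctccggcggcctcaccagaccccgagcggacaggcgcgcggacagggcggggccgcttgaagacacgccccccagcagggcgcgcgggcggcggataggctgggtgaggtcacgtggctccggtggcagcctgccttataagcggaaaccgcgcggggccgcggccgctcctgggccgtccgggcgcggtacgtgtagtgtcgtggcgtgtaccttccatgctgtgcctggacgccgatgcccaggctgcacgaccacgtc
TCACCCCA was found once in the Hmgcs1 window and once in the Srebf2 window, and in 1.56% of all 32851 windows. CACCCCAC was found once in the Hmgcs1 window, at the same place, and in 2.87% of all windows. CACCCGAC was found in no window of the 24 genes that had one and in 0.542% of all windows. Among the genes with a window, TCACCCCA was found in 2 of 18 synthesis genes (Hmgcs1 and Srebf2) and CACCCCAC in 2 of 18 (Hmgcs1 and Acat2). Each was found in 0 of 6 efflux and turnover genes. Of all 27025 genes with a window, 1.77% held TCACCCCA and 3.3% held CACCCCAC. CCAAT was found 4 times in the Hmgcs1 window and once each in those of Srebf2 and Insig1. It was present in at least 1 window of 17 of the 18 synthesis genes and 3 of the 6 efflux and turnover genes, against 41.1% of all 27025 genes with a window, and in 37.4% of all windows. The letters were chosen after the data were seen, and a match describes the sequence and does not show that a factor binds there.

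In EAE against PBS, none of the 22 synthesis genes passed a threshold of 0.05 on the adjusted p (quasi-likelihood F test of edgeR, Benjamini-Hochberg over all 17885 mRNAs), which 2.42% of all mRNAs passed. Their log2 fold changes (log2FC, EAE over PBS) ran from -0.27 to 0.18 with a median of -0.06, beside a median of 0.01 over all mRNAs. Leaving out 1 library moved the median of the 22 genes between -0.01 (without EAE replicate 1) and -0.10 (without EAE replicate 5), and it was -0.0054 on library totals without TMM. On library totals the median over all mRNAs rose as well, from 0.0091 to 0.0595. Of the 22 genes, 10 had a positive and 12 a negative value. At an unadjusted p of 0.05, 2 of the 22 passed, Ebp and Srebf1, beside 17.4% of all mRNAs. Over the 22 genes, the 95% intervals of the log2FC reached from -0.53 to 0.43, so that a change of 2-fold lay outside each of them, and none was among the 21 mRNAs (0.117%) that also passed a log2FC of 1 in either direction. The fold changes include edgeR's library scaling (TMM), whose factors were 1.0046 to 1.0322 in EAE and 0.9601 to 0.9973 in PBS. For this reason a log2FC lies slightly below the ratio of the FPKM means.

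The mevalonate arm turns acetyl-CoA into farnesyl diphosphate. Hmgcs1, which makes HMG-CoA (chromosome 13, 119690379 to 119708260, plus strand, GRCm38, GENCODE vM21), had an FPKM of 41.2, 45.3 and 72.7 in EAE (lowest, median and highest library) and of 40.8, 47.5 and 60.5 in PBS. Of the EAE libraries, 7 lay within the PBS range, and EAE replicate 5 lay above it. Its mean was 48.36 ± 10.01 FPKM in EAE and 49.98 ± 7.17 in PBS (SD, n = 8 each), with a log2FC of -0.10 (SE 0.10, adjusted p = 0.673 in edgeR). Pmvk, the phosphomevalonate kinase, had an FPKM of 9.61, 10.1 and 13.8 in EAE and of 7.50, 9.15 and 11.2 in PBS. None of the EAE libraries lay below the PBS median and 3 lay above the PBS maximum, with a log2FC of 0.15 (SE 0.09, adjusted p = 0.436 in edgeR). The other 5 genes of the arm, Acat2, Mvk, Mvd, Idi1 and Fdps, had log2FC values between -0.09 and 0.11. Idi1, the isopentenyl diphosphate isomerase, was the most variable of the arm within EAE, with a coefficient of variation of 35.7% there and of 23.3% in PBS.

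Squalene is then formed from farnesyl diphosphate and closed to lanosterol. Sqle, the squalene epoxidase that introduces the oxygen needed for ring closure, had an FPKM of 13.2, 15.5 and 21.4 in EAE and of 12.5, 16.6 and 19.2 in PBS. The ranges overlapped apart from EAE replicate 5, which lay above every PBS library. Its log2FC was -0.05 (SE 0.10, adjusted p = 0.846 in edgeR). Fdft1, the squalene synthase, had a log2FC of 0.03 and Lss, the lanosterol synthase, a log2FC of 0.01. The gene body of Fdft1 overlaps Ctsb on the opposite strand, and the strand setting of the counting was not given in the sources used here.

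**Figure D1:**
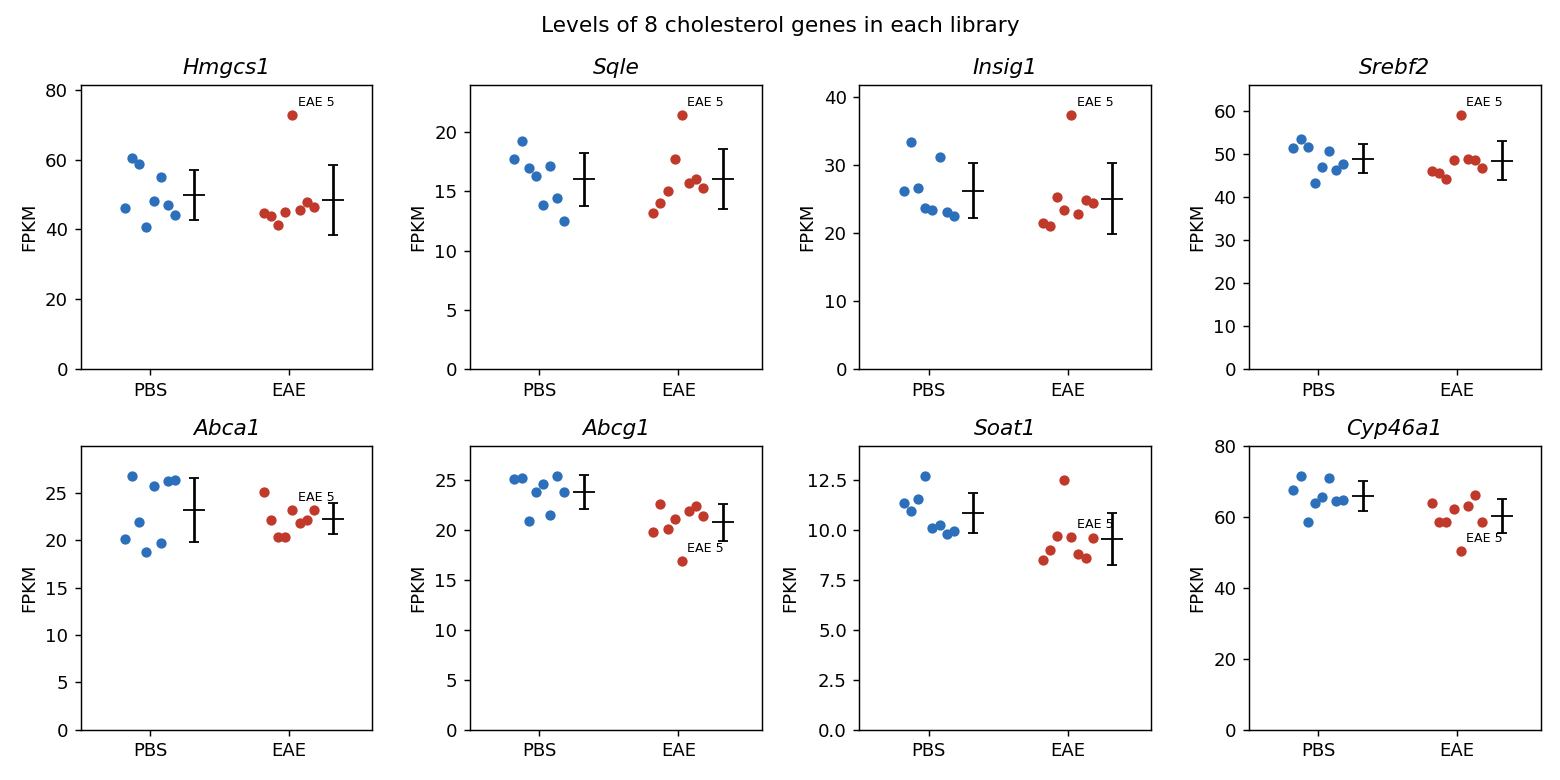
FPKM (vertical axes, each starting at 0) of 4 synthesis genes in the upper row and 4 efflux and turnover genes in the lower row, with a point for each of the 8 PBS and 8 EAE libraries and the mean ± SD beside them. The synthesis genes overlapped between groups with EAE 5 as the highest library of all, at 72.7 FPKM for Hmgcs1, while Abcg1 had 8 of 8 EAE libraries below the PBS median.

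The steps from lanosterol to cholesterol remove methyl groups and move double bonds. Ebp, the sterol isomerase of this stretch (X chromosome), had an FPKM of 4.48, 5.50 and 8.44 in EAE and of 5.73, 6.76 and 8.71 in PBS. In EAE, 5 libraries lay below the PBS minimum, while EAE replicate 4 lay near the PBS maximum. Ebp had the most negative log2FC of the 22 genes at -0.27 (SE 0.12, adjusted p = 0.249 in edgeR). Of 16 edgeR fits that left out 1 library, Ebp passed in 1, without EAE replicate 4 (adjusted p = 0.0492). In that fit 1317 mRNAs passed, against 432 with all libraries. Its adjusted p in edgeR rose to 0.408 without EAE replicate 2. Sc5d, the sterol desaturase, had an FPKM of 13.0, 14.2 and 16.4 in EAE and of 13.0, 15.9 and 16.9 in PBS. Its ranges overlapped fully, with a log2FC of -0.10 (SE 0.07, adjusted p = 0.439 in edgeR). Nsdhl, the sterol dehydrogenase of the demethylation steps, had an FPKM of 5.16, 7.14 and 8.04 in EAE and of 5.90, 7.09 and 8.40 in PBS. The groups overlapped except for 2 low EAE libraries, with a log2FC of -0.11 (SE 0.10, adjusted p = 0.590 in edgeR). The other 5 genes, Cyp51, Tm7sf2, Msmo1, Hsd17b7 and Dhcr7, had log2FC values of -0.17 to 0.03, with Msmo1 at the lower end (adjusted p = 0.597 in edgeR) and spread over 15.6 to 34.1 FPKM in EAE. Cyp51 overlaps Akap9 on the opposite strand and Tm7sf2 overlaps Vps51 on its own strand.

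Of the genes that sense or move sterol, Srebf2, which encodes SREBP2, had an FPKM of 44.2, 47.6 and 58.9 in EAE and of 43.2, 49.1 and 53.3 in PBS. The groups overlapped apart from EAE replicate 5, with a log2FC of -0.07 (SE 0.06, adjusted p = 0.605 in edgeR). Insig1, the retention protein of SREBP and itself one of its targets, had an FPKM of 21.1, 24.0 and 37.4 in EAE and of 22.5, 25.0 and 33.4 in PBS. Its order of libraries at the top was the same as for Hmgcs1, with EAE replicate 5 first and PBS replicate 2 second, and its log2FC was -0.12 (SE 0.11, adjusted p = 0.618 in edgeR). Srebf1, which encodes SREBP1 and acts mainly on fatty acid genes, had an FPKM of 20.9, 22.1 and 23.2 in EAE and of 20.3, 23.3 and 24.6 in PBS. All 8 EAE libraries lay below the PBS median but within the PBS range, with a log2FC of -0.10 (SE 0.05, adjusted p = 0.267 in edgeR). Stard4, a carrier of sterol between membranes, had an FPKM of 3.63, 4.73 and 6.53 in EAE and of 2.97, 3.77 and 5.27 in PBS. It had the most positive log2FC of the 22 genes at 0.18 (SE 0.12, adjusted p = 0.471 in edgeR), and 1 EAE library lay above the PBS range.

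**Figure D2:**
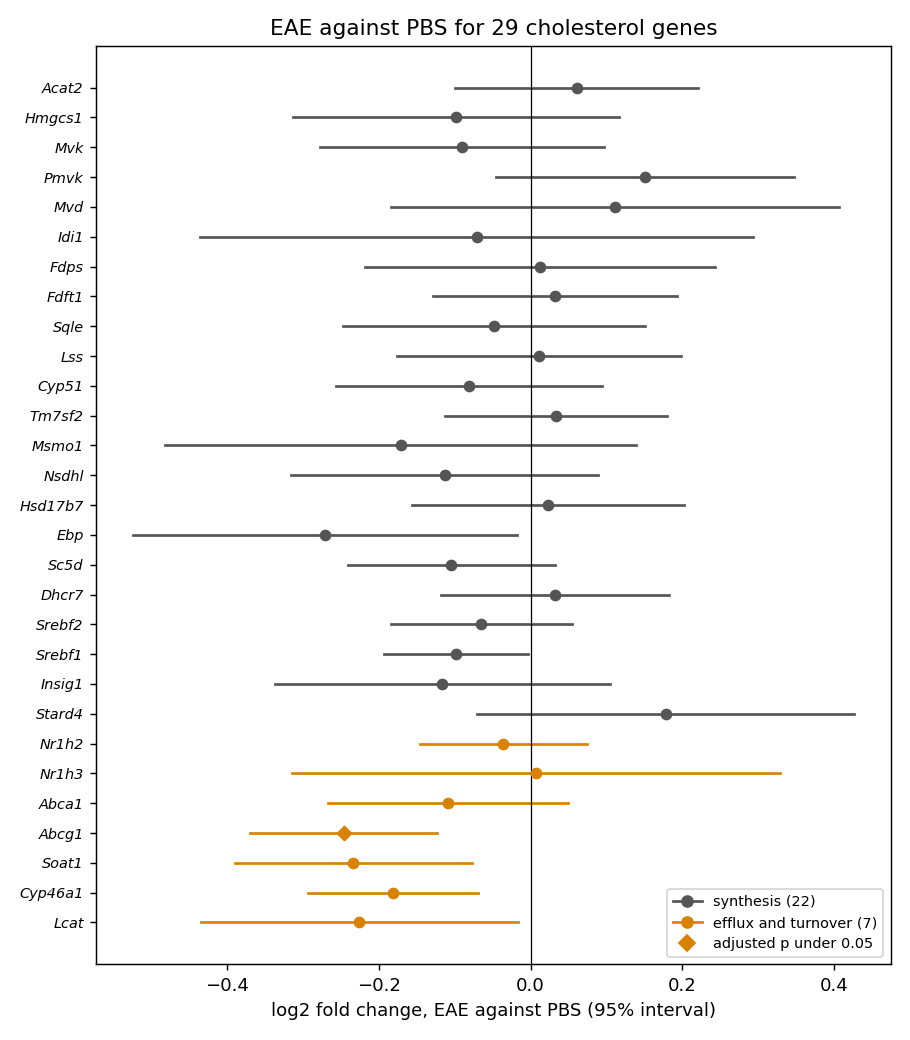
log2 fold change of EAE against PBS (horizontal axis) with its 95% interval for the 22 synthesis genes (grey) and the 7 efflux and turnover genes (orange), with a diamond where the adjusted p was under 0.05. The synthesis genes lie on both sides of 0, from -0.27 to 0.18, and Abcg1 at -0.25 carries the only diamond.

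Of the 7 efflux and turnover genes, 1 passed the adjusted p of 0.05, and it was lower in EAE. Of all mRNAs, 1.76% passed in that direction. The median log2FC of the 7 genes was -0.18, with 6 negative values and 1 positive value, where 47.35% of all mRNAs had a negative value. Most markers of astrocytes, oligodendrocytes and neurons moved the same way. A negative log2FC was found for 7 of 8 astrocyte markers (median -0.21) and 6 of 8 oligodendrocyte markers (median -0.13). The same held for 7 of 8 neuron markers (median -0.13). Exceptions included Gfap (0.50) and Opalin (0.41). Of the microglia markers, 8 of 10 were higher in EAE (median 0.19), as were 8 of 8 neutrophil and 4 of 6 T cell markers. Endothelial markers split into 3 higher and 3 lower. The part of any cell type in the efflux and turnover values was not tested. At an unadjusted p of 0.05, 4 of the 7 passed, all lower in EAE, beside 9.52% of all mRNAs that passed in that direction. The gene that passed was Abcg1, the pump that loads cholesterol onto lipoprotein particles (chromosome 17, 31057675 to 31117988, plus strand, GRCm38, GENCODE vM21). It had an FPKM of 16.9, 21.3 and 22.6 in EAE and of 20.9, 24.2 and 25.4 in PBS. Of the EAE libraries, 3 lay below the PBS minimum and 8 of 8 below the PBS median. Abcg1 had a log2FC of -0.25 (SE 0.06, adjusted p = 0.0304 in edgeR), going from 23.8 ± 1.72 to 20.8 ± 1.87 FPKM (SD, n = 8 each). The exact two-sided permutation test on its FPKM over the 12870 divisions of 8 against 8 gave p = 0.0042, and 0.11 after adjustment over all mRNAs. The smallest p that this test can give is 0.0001554, which limits what can pass after adjustment. Its adjusted p stayed under 0.05 in 11 of 16 fits that left out 1 library and rose above it without EAE replicate 1 or 3 or PBS replicate 2, 5 or 7, up to 0.0735 without PBS replicate 2. It was 0.0767 when the counts were scaled to library totals alone, and 0.0925 and 0.0888 in limma on log2(FPKM + 0.1) and log2(FPKM + 1).

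Soat1, which esterifies cholesterol for storage in droplets, had an FPKM of 8.50, 9.28 and 12.5 in EAE and of 9.78, 10.6 and 12.7 in PBS. In EAE, 7 libraries lay below every PBS library, and the remaining one, EAE replicate 4, lay near the PBS maximum. The log2FC was -0.23 (SE 0.08, adjusted p = 0.102 in edgeR). Among the edgeR fits that left out 1 library, Soat1 passed in 1, without EAE replicate 4 (adjusted p = 0.00669). In that fit 1317 mRNAs passed, against 432 with all libraries. The adjusted p of Soat1 was highest, at 0.188 in edgeR, without EAE replicate 6. Cyp46a1, the 24-hydroxylase by which neurons turn over cholesterol, had an FPKM of 50.5, 60.5 and 66.2 in EAE and of 58.5, 65.3 and 71.5 in PBS. In EAE, 7 of 8 libraries lay below the PBS median, with a log2FC of -0.18 (SE 0.05, adjusted p = 0.0757 in edgeR). Cyp46a1 passed in 2 of the edgeR fits that left out 1 library. Its adjusted p was 0.0456 without EAE replicate 4 and 0.0443 without EAE replicate 7. It was highest, at 0.171 in edgeR, without PBS replicate 2. Of the 8 neuron markers, 7 had a negative log2FC and 2 passed the adjusted p of 0.05 as lower in EAE, beside 47.35% and 1.76% of all mRNAs. The part of neuronal RNA in the value of Cyp46a1 was not tested.

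Lcat, which esterifies cholesterol on lipoproteins, had a log2FC of -0.23 (adjusted p = 0.244 in edgeR), with 5 of 8 EAE libraries below the PBS minimum and EAE replicate 4 above the PBS maximum. Abca1, the pump that gives cholesterol to lipid-poor apolipoproteins, had an FPKM of 20.3, 22.2 and 25.1 in EAE and of 18.8, 23.8 and 26.8 in PBS. Every EAE library lay within the PBS range, where the PBS libraries split into 4 between 18.8 and 21.9 FPKM and 4 between 25.7 and 26.8. Its log2FC was -0.11 (SE 0.08, adjusted p = 0.495 in edgeR). The LXR genes Nr1h2 and Nr1h3, whose products drive Abca1 and Abcg1, had log2FC values of -0.04 and 0.01 (adjusted p = 0.787 and 0.989 in edgeR). Their levels differed, with means of 18.2 FPKM for Nr1h2 and 1.43 FPKM for Nr1h3 in EAE.

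Other genes of the pathway were read from the same fit. Of 8 further genes of sterol synthesis and uptake, none passed the adjusted p of 0.05, and 2 passed an unadjusted p of 0.05, beside 17.4% of all mRNAs. The 2 went in opposite directions, Lrp1, a lipoprotein receptor, with a log2FC of -0.13 and Mylip, a ligase that marks such receptors for degradation, with a log2FC of 0.26. Of 13 further genes of sterol handling, 3 passed, all lower in EAE, as against 1.76% of all mRNAs in that direction. Nceh1, which hydrolyses stored cholesterol ester, had a log2FC of -0.26 (SE 0.06, adjusted p = 0.0175 in edgeR), with 7 of 8 EAE libraries below the PBS minimum, and passed in 16 of 16 fits that left out 1 library but in neither limma fit (adjusted p = 0.0546 and 0.0502). Npc1, which moves cholesterol out of the lysosome, had a log2FC of -0.17 (SE 0.04, adjusted p = 0.0282 in edgeR), with 6 of 8 below the PBS minimum and 9 of 16 such fits under 0.05. Apoe, which encodes the main apolipoprotein of the brain, had a log2FC of -0.30 (SE 0.08, adjusted p = 0.0437 in edgeR). Of its EAE libraries, 6 of 8 lay below the PBS minimum and EAE replicate 5 lay above the PBS maximum, with 4 of 16 such fits under 0.05. On library totals without TMM, the adjusted p of Npc1 was 0.111 and that of Apoe 0.0883, and neither passed in limma. Most of the astrocyte and oligodendrocyte markers counted above moved the same way as these genes, and their part was not tested. Of 8 fatty acid synthesis genes, none passed the adjusted p of 0.05, although 8 of 8 had a negative log2FC, beside 47.35% of all mRNAs, and 5 passed an unadjusted p of 0.05 as lower, beside 9.52%.

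The levels of the synthesis genes moved from mouse to mouse within each group. EAE replicate 5 was the highest of the 16 libraries for 11 of the 22 synthesis genes and the highest of the EAE group for 15, while Ebp, Acat2, Tm7sf2 and Mvk lay below their 16-library means in it and Acat2 was at its lowest of the EAE group. Its synthesis genes lay at a median of 0.24 log2 units above their 16-library means, followed by PBS replicate 6 at 0.17 and PBS replicate 2 at 0.14. The lowest medians were those of PBS replicate 8 at -0.15 and PBS replicate 7 at -0.14. EAE replicate 5 was also the lowest library for Abcg1 at 16.9 FPKM and for Cyp46a1 at 50.5 FPKM. It had the highest summed astrocyte markers of the 16 libraries (1750 FPKM) and oligodendrocyte markers (1283 FPKM) and the lowest neuron markers (798.4 FPKM). The part of these cell types in the levels of EAE replicate 5 was not tested. Without EAE replicate 5 the number of synthesis genes that passed stayed at 0. The log2FC of Hmgcs1 was then -0.21 (adjusted p = 0.125 in edgeR), that of Insig1 -0.22 and that of Idi1 -0.25, none of which passed.

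**Figure D3:**
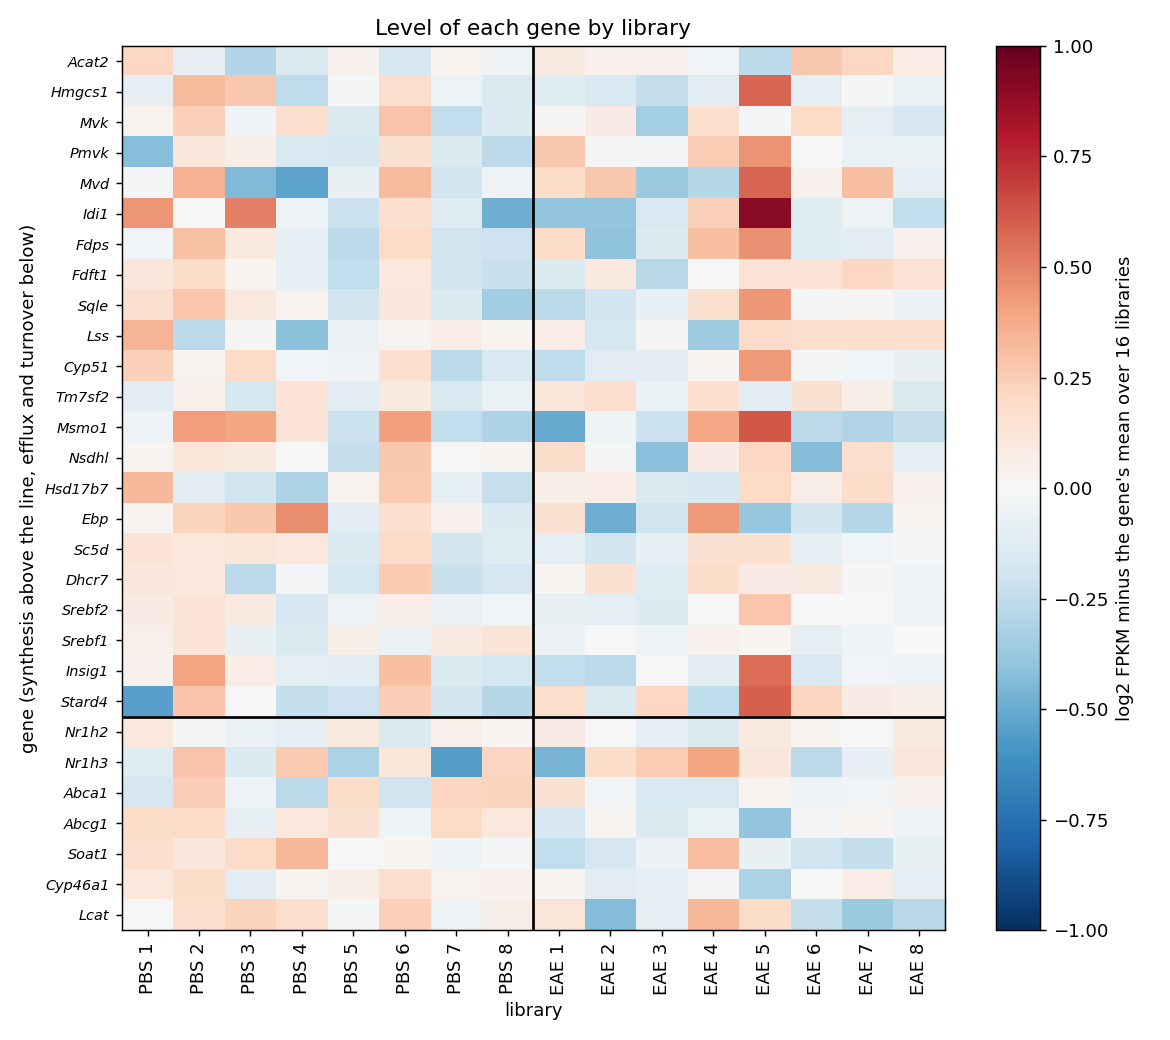
Level of each of the 29 genes (rows) in each of the 16 libraries (columns) as log2 FPKM minus the mean of the gene over the libraries, from blue (lower) to red (higher). EAE 5 is red in most synthesis rows, with a median of 0.24, but blue for Ebp and Acat2 and, among the efflux and turnover rows, for Abcg1 and Cyp46a1.

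To describe which members varied together, the levels of all mRNAs were correlated with Hmgcs1 over the 16 libraries after subtraction of the group means, with 100000 permutations of the libraries within groups and adjustment over 17884 mRNAs. Srebf2 was the only member that passed an adjusted p of 0.05 (Pearson r = 0.925, permutation p = 3e-05, adjusted p = 0.0413), where 0.028% of all mRNAs passed with a positive r. Its Spearman rho was 0.809 (permutation p = 0.00071, adjusted p = 0.188). Without EAE replicate 5 and PBS replicate 2, the libraries farthest from the median of Hmgcs1, r was 0.787 (permutation, adjusted p = 0.652). The call was also lost in 11 of the 16 correlations that left out 1 library, among them those without EAE replicate 5 and without PBS replicate 2. This loss does not show which libraries carry the correlation. With 100000 permutations the smallest possible p was about 1e-05. After adjustment over 17884 mRNAs, no mRNA at that value could pass alone. A call kept or lost therefore depends on other mRNAs as well as on the gene itself. Insig1 came next at r = 0.87, then Stard4 at 0.757, Cyp51 at 0.727 and Sqle at 0.726, none of which passed. At the other end stood Abcg1 at -0.549 and Acat2 at -0.561, again without passing. Without EAE replicate 5 these were -0.107 and -0.228. As a description, the median r was 0.546 over the other 21 synthesis genes and 0.067 over the 7 efflux and turnover genes. It was 0.62 over the 8 fatty acid synthesis genes, 0.644 over the 8 astrocyte markers and -0.007 over all mRNAs. Of the fatty acid synthesis genes, Scd1 (0.907), Fads2 (0.897) and Fads1 (0.895) lay above Insig1, without passing. The astrocyte marker Aldh1l1 had the highest r of the lists at 0.955 (permutation, adjusted p = 0.0397), above that of Srebf2. Without EAE replicate 5 the medians were 0.43 for the synthesis genes, 0.525 for the fatty acid synthesis genes and 0.342 for the astrocyte markers. Within the 6 libraries most alike, few for an r after subtraction of the group means, they were 0.196, 0.366 and -0.222. Within the other 10 libraries they were 0.64, 0.795 and 0.714. These points share libraries, depth and cell content, and the part of astrocyte RNA was not tested.

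Finally, the comparison was made within the 6 libraries most alike and within the other 10, a split chosen after the data were seen. In the 3 EAE and 3 PBS libraries most alike, 17 of the 22 synthesis genes had a positive log2FC, with a median of 0.11, and in the other 10 libraries 18 of 22 had a negative log2FC, with a median of -0.13. Over all mRNAs 8707 were higher and 8532 lower in the alike set and 8947 and 8514 in the others, with medians of 0.0024 and 0.0049. Within the alike libraries 24.1% of all mRNAs passed the adjusted p of 0.05. Of the synthesis genes, 4 passed as higher in EAE, beside 11.0% of all mRNAs, and 1 passed as lower, beside 13.1%. The 4 were Fdft1 (log2FC 0.36), Stard4 (0.32), Sqle (0.18) and Dhcr7 (0.18), and the lower gene was Srebf1 (-0.17). For Fdft1 the alike EAE libraries stood at 12.7 to 13.3 FPKM and the alike PBS libraries at 9.69 to 10.1 FPKM, without overlap, while the other libraries overlapped at 9.48 to 12.7 in EAE and 10.8 to 13.1 in PBS. Nothing in the labels says whether the alike libraries shared a preparation, and because the set was chosen for a small difference between libraries of a group, the spread behind its p-values is small by that choice and the calls within it are a description.

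The efflux and turnover genes had negative medians in both sets of libraries, -0.18 in the alike set and -0.18 in the others, with Abcg1 at -0.20 and -0.28. Within the alike set 4 passed, all lower in EAE, beside 13.1% of all mRNAs, namely Abca1 (log2FC -0.25), Abcg1, Soat1 (-0.18) and Lcat (-0.32). In the other libraries none of the 29 genes passed in edgeR, where 0.0745% of all mRNAs did. The difference between the effects in the 2 sets was fitted as an interaction term in edgeR. Because the sets were chosen from these same libraries by their similarity, its p-values are a description as well. None of the 29 genes passed the adjusted p of 0.05, where 0.0615% of all mRNAs passed, and 3 synthesis genes and 0 efflux and turnover genes passed an unadjusted p of 0.05, beside 8.03% of all mRNAs. The smallest p was that of Fdft1 (difference of 0.51 in log2FC, adjusted p = 0.119 in edgeR).

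**Figure D4:**
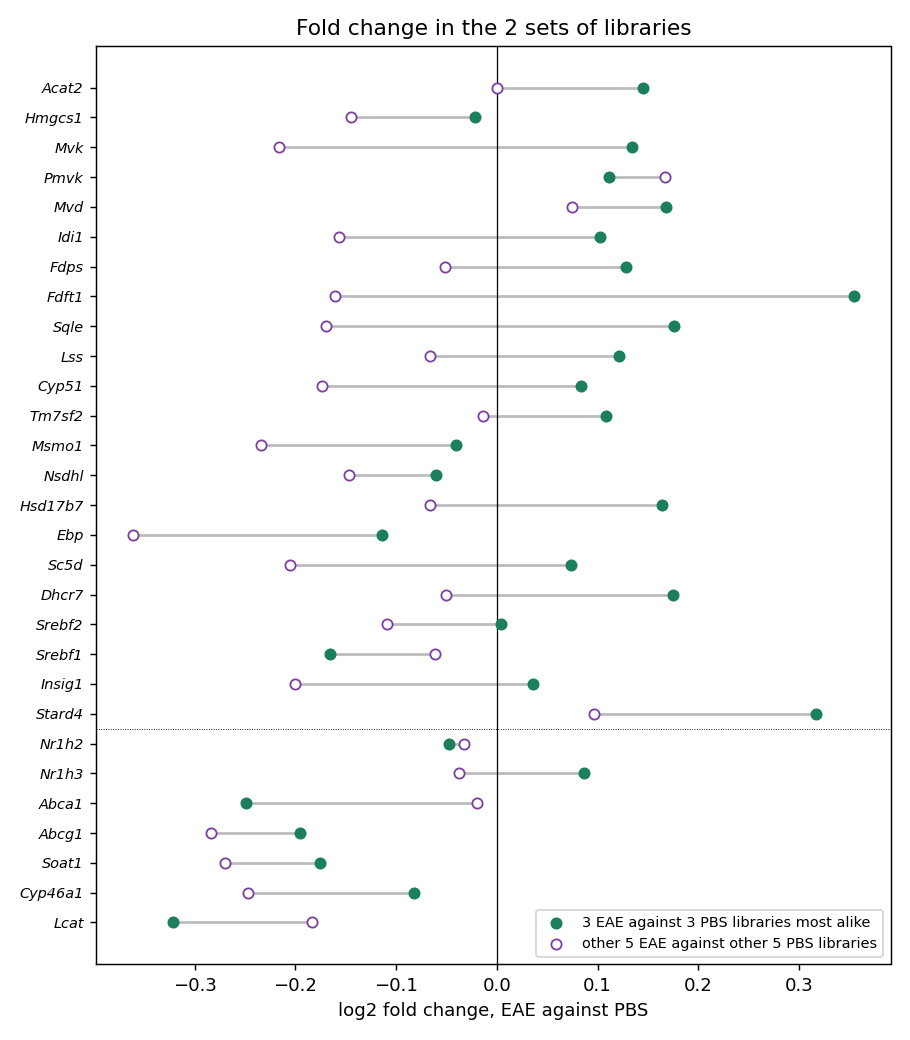
log2 fold change of EAE against PBS (horizontal axis) for each gene in the 6 libraries most alike (filled) and in the other 10 (open), joined by a line, with the efflux and turnover genes below the dotted line. The filled points of 17 of the 22 synthesis genes lie above 0 and the open points of 18 lie below it, while Abcg1, Soat1, Cyp46a1 and Lcat lie below 0 in both.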

How the data were processed

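Ribosomal-RNA-depleted stranded libraries of sorted CD11b+/CD45int brain cells were sequenced from 8 EAE and 8 PBS mice. The deposited counts are raw reads per mRNA gene, which the authors made with bcl2fastq, HISAT2 2.1.0, StringTie and HTSeq 0.11.2 on GRCm38 with RefSeq genes. The submitters' notes also name DESeq2 1.22.2. The FPKM values deposited by the authors were made from those counts. The strand setting and the treatment of reads with several matches are not given in the sources used here.

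Groups came from the sample titles. mRNAs with a summed count of at least 16 were fitted with edgeR 4.0.16 (TMM, quasi-likelihood, condition as the only term, R 4.3.3), with Benjamini-Hochberg adjustment over all of them. An SE is the log2FC over the root of its F statistic. FPKM served for levels. Correlations used log2 CPM with a prior count of 2. The steps were tested on simulated data. Alternatives were other scalings and filters, DESeq2 1.42.0, limma 3.58.1 on log2(FPKM + 0.1) and log2(FPKM + 1), exact permutation, a replicate block and leaving out each library. Named genes were every member, with full values for those past the threshold, for the 6 synthesis and 3 efflux and turnover members of smallest p and for Hmgcs1, Sqle, Insig1, Srebf2, Abca1, Abcg1 and Cyp46a1, and of the other pathway genes those past the threshold. Some genes of the pathway are not reported here. For correlations, the 5 highest and the 2 lowest members were named.

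The members, lists and tests were chosen with earlier results of these data known. Each library is taken as 1 mouse, as the labels number them. P-values measure the spread between these libraries.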

Additional observations from a re-analysis of the deposited data

Results flagged for a closer look

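In each group of 8, the highest and lowest FPKM of every member was checked for a gap to its neighbour that, as a share of the range of the group, exceeded Dixon's 95% critical value for 8 values. Of 58 groups checked, 6 had such a library, and chance alone marks about 1 group in 20. In 5 of the 6 it was EAE replicate 5, the highest EAE library for Hmgcs1 (72.7 FPKM, next 47.8), Insig1 (37.4, next 25.3), Srebf2 (58.9, next 48.7), Cyp51 (20.6, next 15.5) and Idi1 (4.82, next 3.05). The other was EAE replicate 4, the highest EAE library for Soat1 (12.5 FPKM, next 9.69). The cause of either was not tested. The 58 groups share libraries and some of the genes varied together, so the groups are not independent. The 6 of 58 can therefore not be set against 1 in 20.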

How the results depend on the processing

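Of the 432 mRNAs past the adjusted p of 0.05, 117 were higher and 315 (72.9%) lower in EAE. On library totals without TMM, 226 were higher and 103 (31.3%) lower, and no efflux and turnover gene passed (0). The median log2FC over all mRNAs was 0.0595 on library totals and 0.0091 with TMM. The DESeq2 Wald test gave 910 mRNAs, 611 of them lower, and 2 efflux and turnover genes, Abcg1 and Cyp46a1. limma gave 205 mRNAs (73, or 35.6%, lower) on log2(FPKM + 0.1) and 237 (80, or 33.8%, lower) with 5 past a log2FC of 1 on log2(FPKM + 1), with 0 efflux and turnover genes in both. The exact permutation test gave 0 mRNAs, 0 lower and 0 efflux and turnover genes after adjustment, and 3298 mRNAs, 0 synthesis and 3 efflux and turnover genes at an unadjusted p under 0.05. With the replicate block 2 efflux and turnover genes passed, Abcg1 and Soat1, and 517 mRNAs in all. Same-numbered libraries correlated at r of -0.12 to 0.38, with 3 of 8 pairs over 0.1 and 3 of 8 best with their own number. These values do not settle whether the numbers pair the samples. In EAE, 17565 to 17644 mRNAs were detected in replicates 1 to 4 and 17955 to 18042 in replicates 5 to 8. The same ranges in PBS were 17405 to 17609 and 17831 to 17922. The cause of this step was not tested.

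Leaving out 1 library moved the count of mRNAs between 144 and 1317, of lower mRNAs between 104 and 815, of those past a log2FC of 1 between 13 and 49, of synthesis genes between 0 and 1, of efflux and turnover genes between 0 and 3, and of members correlated with Hmgcs1 between 0 and 1. All of the highest counts in EAE against PBS came without EAE replicate 4. No efflux and turnover gene passed without EAE replicate 1 or 3 or PBS replicate 2, 5 or 7. No member correlated with Hmgcs1 passed with log2(FPKM + 0.1), with Spearman's rho or outside the alike set (0), and 5 did without subtraction of group means. Such calls are limited by the number of permutations, as stated for the correlations.

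In alternatives chosen after seeing the data, the alike set alone gave 4147 mRNAs, 2251 lower, 177 past a log2FC of 1, 5 synthesis and 4 efflux and turnover genes and a synthesis median of 0.11, and the log2FC of Sqle (0.18) turned positive. The other libraries gave 13, 5, 6 and 0 efflux and turnover genes. With the set as a term, 768 mRNAs passed, 526 lower and 38 past a log2FC of 1. The causes were not tested. The median of the synthesis genes ran from -0.10 to -0.01 and that of the efflux and turnover genes from -0.20 to -0.15 when 1 library was left out.

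Nr1h3, the least counted member, had 57 to 119 counts per library. The counts hold no molecular identifiers, and with 8 libraries a group the 95% intervals of the members reached from -0.53 to 0.43 in log2FC.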
